A study of Rattus norvegicus with 9 samples.

Results

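The mitochondrial tRNAs for threonine, isoleucine, glycine and arginine gave 6 of the 192 distinct tRNA-derived fragments (tRFs) listed as changed in the islets of protein-restricted rats. They were taken by host, as every sequence whose host tRNA is mtRNA-Thr-TGT, mtRNA-Ile-GAT, mtRNA-Gly-TCC or mtRNA-Arg-TCG. All 4 genes lie on the mitochondrial DNA strand that encodes most of the mitochondrial genes, and the leucine tRNAs of that strand were left out. Islets came from 22-day-old male Sprague Dawley rats, 1 rat per sample. In the LP group (n = 4) the mothers ate a low-protein diet with 5.3% protein during pregnancy and lactation, and in the CD group (n = 5) a chow diet with 16.8% protein. Offspring of LP-fed mothers serve in the study as rodents prone to diabetes, and the exposure cannot be split here into its parts before and after birth. The table holds no marker of islet cell types, so the purity of the islets was not checked. Whether littermates were among the rats is not stated, so p-values cover the spread between these samples.

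Mitochondrial DNA encodes its own set of tRNAs, which serve the translation of proteins made inside the organelle, among them subunits of the respiratory chain. The long transcripts of the mitochondrial genome are cut at the tRNAs that lie between the coding genes, and the freed tRNAs are then trimmed and given the CCA end that carries the amino acid. Many mammalian mitochondrial tRNAs are rich in A and T and have a short or unusual D loop. In pancreatic β-cells, respiration by this chain couples glucose metabolism to insulin secretion. Each tRF is called below by its host tRNA followed by its length in nucleotides.

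The 6 sequences are shown because they display where each fragment begins and ends around the anticodon, the triplet that reads the codon, which is printed in capitals.
mtRNA-Thr-TGT 52: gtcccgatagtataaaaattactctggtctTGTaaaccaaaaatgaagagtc
mtRNA-Thr-TGT 51: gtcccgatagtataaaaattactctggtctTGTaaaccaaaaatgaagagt
mtRNA-Ile-GAT 52: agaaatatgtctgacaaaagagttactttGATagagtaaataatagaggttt
mtRNA-Gly-TCC 51: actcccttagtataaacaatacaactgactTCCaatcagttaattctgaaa
mtRNA-Gly-TCC 33: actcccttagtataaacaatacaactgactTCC
mtRNA-Arg-TCG 53: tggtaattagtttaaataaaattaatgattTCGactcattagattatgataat

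The fragments share a layout. Within each host all fragments begin at the same base, so that mtRNA-Thr-TGT 51 is mtRNA-Thr-TGT 52 without its last base and mtRNA-Gly-TCC 33 is the first part of mtRNA-Gly-TCC 51. The anticodon occupied bases 31 to 33 of the Thr, Gly and Arg fragments and bases 30 to 32 of the Ile fragment, counted from the 5′ end. It was located as the triplet in a 7-base loop closed by at least 4 of 5 possible base pairs. The 5 longer fragments ran 18 to 20 bases past the anticodon. mtRNA-Gly-TCC 33 ended on the last base of the anticodon. A T preceded the anticodon in each fragment, and an A followed it wherever the fragment went on. These bases were not compared with those of the other tRFs, so they are not given as particular to the 6. None of the 6 ended in CCA, the 3′ end of a mature tRNA, against 79 of the 192 tRFs of the table.

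The Thr and Gly fragments also share the run TAGTATAAA, 9 bases that begin at base 8 in both hosts. It occurred in 4 tRFs of the table, which are the 4 Thr and Gly fragments. G and C made up 18.9% of the bases of mtRNA-Arg-TCG 53 and 36.4% of those of mtRNA-Gly-TCC 33, the lowest and highest of the 6. The 178 nuclear tRFs ranged from 46.7% to 77.4% with a median of 63.2%, so none was as poor in G and C. The 8 other mitochondrial tRFs had 31.2% to 47.6%. Except for mtRNA-Gly-TCC 33, the fragments were long for this table, which spans 16 to 55 nucleotides with a median of 30. Of the 22 tRFs of 51 nucleotides or more, 5 were Thr, Ile, Gly or Arg fragments and 3 were fragments of other mitochondrial tRNAs. All 22 are marked by the authors as lower in LP, against 116 of the 192 tRFs of the table.

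The libraries differed in table totals and in size factors. Totals of whole libraries are not given, so the table totals do not measure depth. The counts of the table's tRFs summed to 26166 to 34775 per CD sample and to 12556 to 40166 per LP sample. Normalized read counts are the raw counts divided by the authors' size factors, which ran from 0.625 to 1.20 in CD and from 0.730 in LP 1 to 1.80 in LP 4. The table holds only tRFs that the authors had called changed in these very samples, so the tests of LP against CD below do not give independent evidence of a change, and the sizes tend to be too large. Islets were sequenced in bulk, so fewer cells of a type and less RNA per cell cannot be told apart.

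mtRNA-Thr-TGT 52 and mtRNA-Ile-GAT 52 made up most of the signal, and all 6 fragments were lower in LP. The Thr tRNA reads the threonine codons, and the Ile tRNA the isoleucine codons that end in a pyrimidine. Together the 2 fragments held 88.1% to 93.1% of the counts of the 6 in every sample. Ranked by mean normalized read count over the 9 samples, mtRNA-Ile-GAT 52 was 3 and mtRNA-Thr-TGT 52 was 5 of the 192 tRFs. The other 4 ranked between 37 and 128.

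mtRNA-Thr-TGT 52 had 1722, 973, 2131, 3280 and 851 raw counts in CD 1 to CD 5, and 211, 203, 1121 and 1318 in LP 1 to LP 4. Divided by the size factors, these were 2756, 1071, 1771, 3539 and 879 normalized read counts in CD and 289, 202, 771 and 733 in LP. Each LP sample was therefore below each CD sample on the normalized scale, while in raw counts LP 3 and LP 4 lay within the range of CD. The mean fell from 2003 ± 1130 (SD, n = 5) to 499 ± 295 (SD, n = 4), a log2 fold change of -2.00 ± 0.57 (SE), or 4.01-fold (edgeR quasi-likelihood test, adjusted p = 0.00500).

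mtRNA-Thr-TGT 51, which lacks only the last C, had 32, 30, 39, 72 and 12 raw counts in CD and 2, 9, 11 and 16 in LP. Its normalized read counts were 51.2, 33.02, 32.4, 77.7 and 12.4 in CD and 2.74, 8.97, 7.57 and 8.90 in LP. The groups did not overlap on that scale, although CD 5 was close to the LP samples. The log2 fold change was -2.48 ± 0.55 (SE, edgeR adjusted p = 0.00274), the largest estimate of the 6, from few counts in LP. CD 4 was the highest sample of both Thr fragments, and CD 5 the lowest of CD.

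mtRNA-Ile-GAT 52 had 1151, 1756, 3992, 4485 and 955 raw counts in CD and 348, 444, 1407 and 1849 in LP. The normalized read counts were 1842, 1933, 3318, 4839 and 987 in CD and 477, 443, 968 and 1029 in LP. Here the groups overlapped, because LP 4 was above CD 5. The mean fell from 2584 ± 1512 (SD, n = 5) to 729 ± 312 (SD, n = 4), with a log2 fold change of -1.82 ± 0.53 (SE, edgeR adjusted p = 0.00521), or 3.54-fold.

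mtRNA-Gly-TCC, whose tRNA reads the glycine codons, gave 2 fragments with different patterns. mtRNA-Gly-TCC 51 had 95, 77, 23, 12 and 26 raw counts in CD and 5, 8, 23 and 24 in LP. The normalized read counts were 152, 84.8, 19.1, 12.9 and 26.9 in CD and 6.85, 7.97, 15.8 and 13.3 in LP. CD 1 and CD 2 stood well above the other 3 CD samples, which were near LP, and CD 4 lay below LP 3 and LP 4. The span within CD was 11.7-fold, against 3.04- to 6.27-fold for the other 5 fragments. The log2 fold change was -2.36 ± 0.71 (SE, edgeR adjusted p = 0.00566). It was -1.65 without CD 1 (edgeR adjusted p = 0.0155), and so rested in good part on that library.

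mtRNA-Gly-TCC 33, which stops at the anticodon, had 47, 97, 118, 157 and 54 raw counts in CD and 15, 15, 67 and 81 in LP. Its normalized read counts were 75.2, 107, 98.1, 169 and 55.8 in CD and 20.6, 14.9, 46.1 and 45.1 in LP. The groups did not overlap, and CD 4, the lowest CD sample of the longer Gly fragment, was the highest of the shorter one. The log2 fold change was -1.65 ± 0.48 (SE, edgeR adjusted p = 0.00521), the smallest estimate of the 6.

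mtRNA-Arg-TCG 53, from the tRNA that reads the arginine codons of the CGN box, had 77, 164, 305, 392 and 134 raw counts in CD and 29, 40, 127 and 114 in LP. The normalized read counts were 123, 181, 254, 423 and 138 in CD and 39.7, 39.9, 87.4 and 63.4 in LP. Every LP sample was below every CD sample. The mean fell from 224 ± 122 (SD, n = 5) to 57.6 ± 22.8 (SD, n = 4), a log2 fold change of -1.95 ± 0.48 (SE, edgeR adjusted p = 0.00344), or 3.86-fold.

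**Figure D1:**
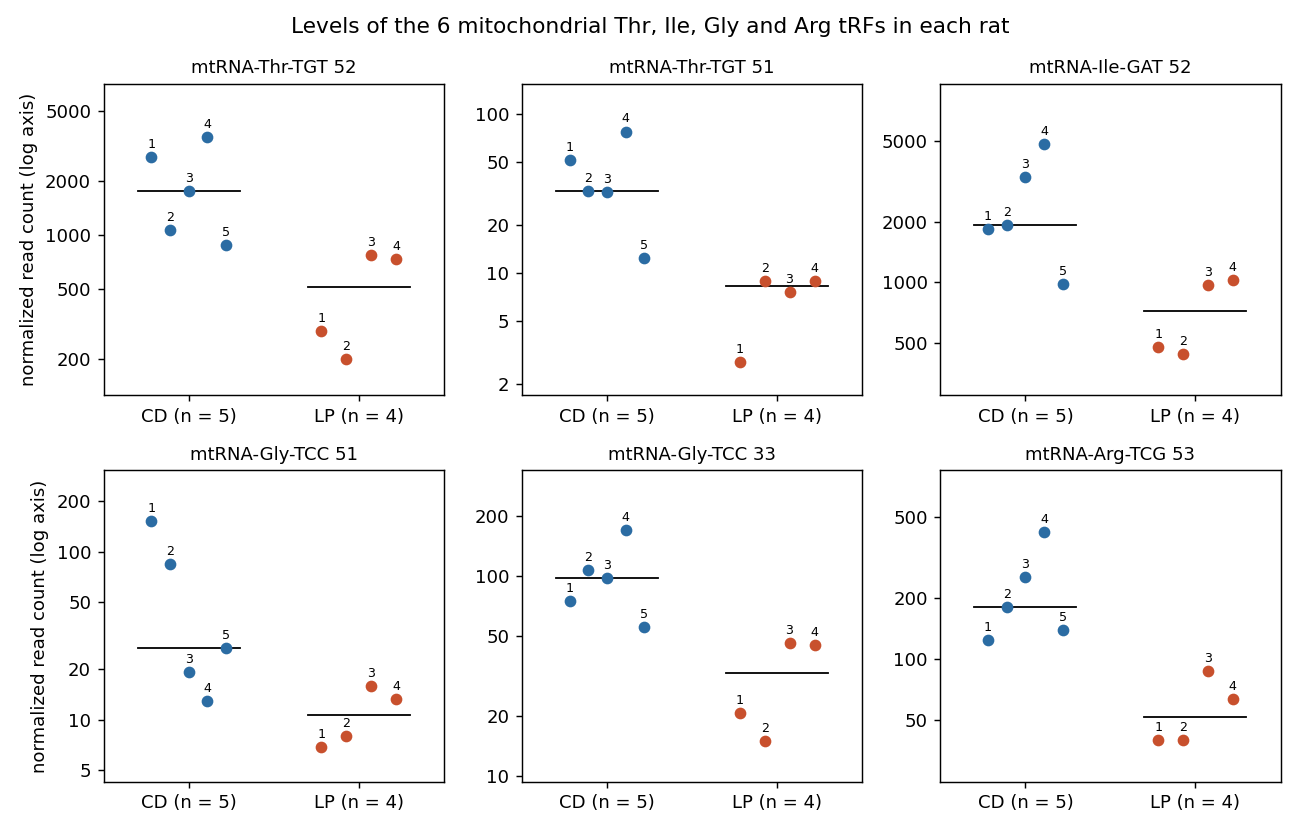
Normalized read counts of the 6 fragments in each rat on a log axis, 1 panel per fragment, with CD in blue and LP in orange. Numbers beside the points are replicate numbers and lines are medians; CD 4 is the highest CD sample in 5 panels and the lowest in the panel of mtRNA-Gly-TCC 51.

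All 6 fragments passed as lower at 2-fold and an adjusted p of 0.05, and none as higher. That is to be read against the table, where 56.4% of the 181 tested tRFs were called lower and 41.4% higher. The median log2 fold change of the 6 was -1.98, and -1.92 over the 106 tested tRFs marked lower, so the 6 lay near the middle of the tRFs that were lower. Ordered by size of fall among those 106, the 6 took places 13 to 80. In normalized read counts every LP sample was below every CD sample for 4 of the 6, against 92 (47.9%) of the 192 tRFs. In raw counts this held for none of the 6, against 26 (13.5%) of the 192 tRFs. A tRF marked higher cannot separate in this direction. The closer background is thus the 116 tRFs marked lower, of which 92 separated in normalized read counts and 26 in raw counts. LP 3 and LP 4, which gave the overlap, had the largest size factors, 1.45 and 1.80.

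Of the 8 other mitochondrial tRFs, 5 passed the filter on low counts, and 4 of these were called lower and 1 higher, with a median log2 fold change of -1.95. The 1 called higher was mtRNA-Ala-TGC 32. Its gene lies on the opposite strand, as do those of mtRNA-Cys-GCA 51 (log2 fold change -2.55) and mtRNA-Asn-GTT 55 (-1.70), which were called lower. Among those below the filter, the authors marked mtRNA-Asn-GTT 39 as higher. They marked mtRNA-Cys-GCA 21 and mtRNA-Leu1-TAA 21 as lower.

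**Figure D2:**
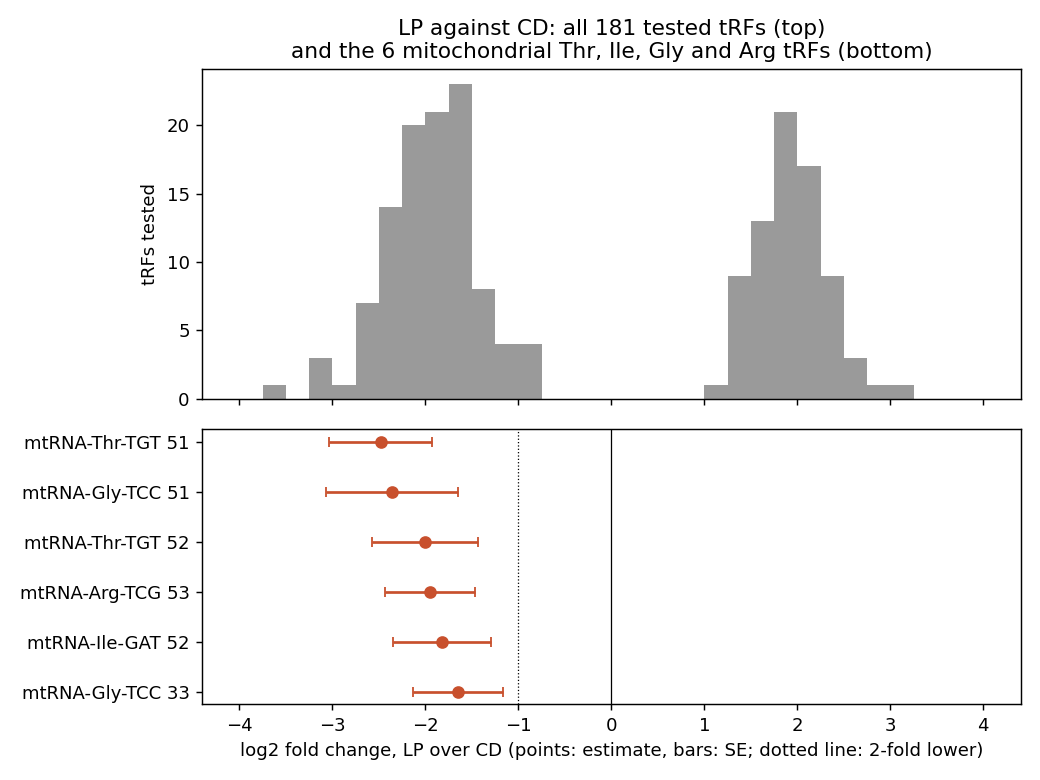
Top, number of tested tRFs per log2 fold change of LP over CD, for all 181. Bottom, the estimate (point) and SE (bar) of each of the 6 fragments, which lie between -2.48 and -1.65, within the mass of the tRFs that were lower.

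How far the 6 fell depended on how the libraries were scaled. When DESeq2 estimated size factors from the tRFs listed, their median log2 fold change was -1.25 and that of all tRFs -0.72, with TMM over the table -1.36 and -0.79, and without scaling -1.40 and -0.91, against -1.98 and -1.49 with the authors' size factors. A scaling moves all tRFs about alike, so the distance of the median of the 6 from that of the table changed little, from -0.48 to between -0.49 and -0.57. Leaving out single samples moved it more, to -0.29 without CD 4, -0.31 without LP 2, -0.78 without CD 2 and -0.80 without CD 5. The filter was rerun each time, so the tested tRFs changed as well, from 181 to between 173 and 187. Both medians moved, to -1.64 for the 6 and -1.35 for the table without CD 4, and to -2.09 and -1.31 without CD 2. The calls over the table split into 61 lower and 76 higher with DESeq2's own size factors, 71 and 76 with TMM and 54 and 75 without scaling, against 102 and 75. mtRNA-Gly-TCC 33 did not pass under the 3 alternatives (adjusted p = 0.0750 with DESeq2, 0.0515 with edgeR after TMM and 0.104 with edgeR without scaling). mtRNA-Thr-TGT 52 (edgeR adjusted p = 0.0631) and mtRNA-Ile-GAT 52 (edgeR adjusted p = 0.0709) did not pass without scaling.

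A ratio between 2 fragments of a library does not depend on scaling, and was used to ask whether some of the 6 fell more than others. The log2 ratio of raw counts, with 0.5 added to each, was compared between LP and CD for all 15 pairs. The groups overlapped for all 15, the differences lay between -0.64 and 0.32, and none passed (two-sided exact permutation test, lowest p = 0.190, adjusted p = 0.968, where the smallest p possible is 0.0079). At an unadjusted p of 0.05 the count was also 0. The largest difference was between mtRNA-Thr-TGT 51 and mtRNA-Gly-TCC 33, with a log2 ratio of -1.41 ± 0.60 (SD, n = 5) in CD and -2.05 ± 0.91 (SD, n = 4) in LP (exact permutation test, p = 0.214). With each sample left out the differences reached -1.09 for that pair and 0.83 for mtRNA-Thr-TGT 52 to mtRNA-Thr-TGT 51, both without LP 2, and none passed (exact permutation test, lowest adjusted p = 0.268). The highest difference of any pair was also larger without CD 1 (0.69), CD 2 (0.34), CD 3 (0.52), CD 4 (0.79) or CD 5 (0.44). An unequal fall was not detectable with this spread, which does not show that the fragments fell alike.

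The balance between both Gly fragments ranged widely between the CD rats, and less between the LP rats. Of the counts of both Gly fragments, mtRNA-Gly-TCC 33 held 33.1% in CD 1 (95% Wilson interval 25.9% to 41.2%, covering counting error only), 55.7% in CD 2, 83.7% in CD 3, 92.9% in CD 4 (88.0% to 95.9%) and 67.5% in CD 5. In LP the shares were 75.0%, 65.2%, 74.4% and 77.1%, all inside the range of CD. The log2 ratio of the longer to the shorter Gly fragment was -1.27 ± 1.80 (SD, n = 5) in CD and -1.40 ± 0.37 (SD, n = 4) in LP (exact permutation test, p = 0.881).

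The Thr fragments were balanced differently, with the shorter one always rare. mtRNA-Thr-TGT 51 held 1.39% to 2.99% of the counts of both Thr fragments in CD. In LP it held 0.939% in LP 1, where it had 2 counts, 4.25% in LP 2, 0.972% in LP 3 and 1.20% in LP 4. The interval of LP 2, 2.25% to 7.87%, overlapped those of all 5 CD samples. Between the 2 abundant fragments, mtRNA-Thr-TGT 52 held 59.9% of their summed counts in CD 1 (58.1% to 61.7%) and 31.4% to 47.1% in the other 8 samples.

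**Figure D3:**
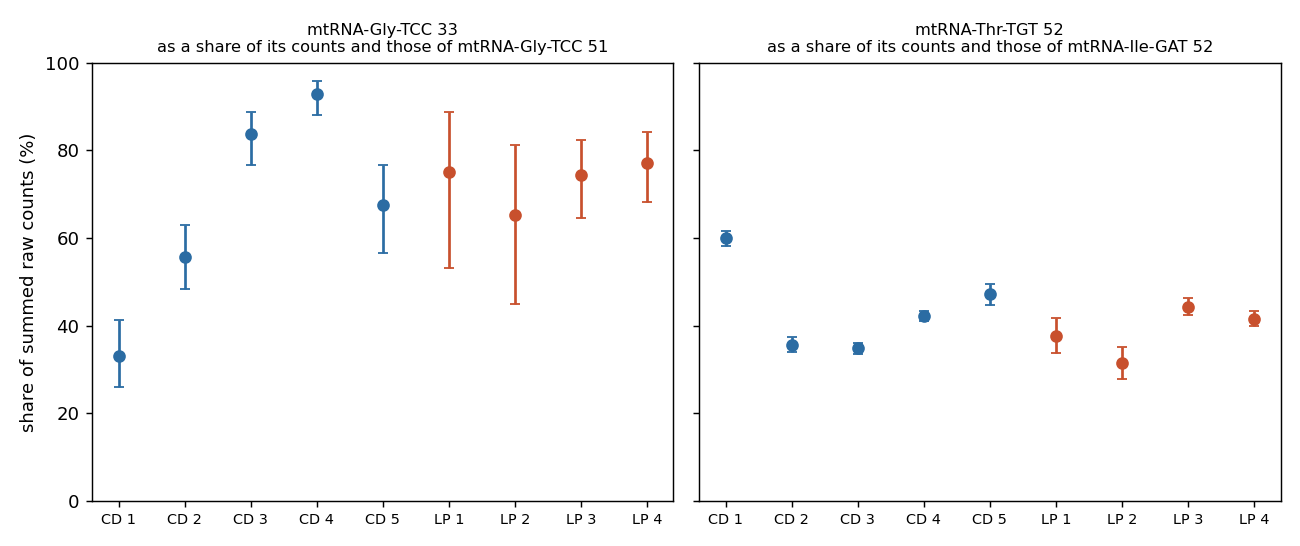
Left, counts of mtRNA-Gly-TCC 33 as a percentage of those of both Gly fragments. Right, counts of mtRNA-Thr-TGT 52 as a percentage of those of it and mtRNA-Ile-GAT 52, in each sample with CD in blue, LP in orange and bars for 95% Wilson intervals; the Gly share runs from 33.1% in CD 1 to 92.9% in CD 4.

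Co-variation was examined apart from the diet difference that had selected the tRFs. For this each log2 normalized read count (0.5 added) was taken as its deviation from the mean of its group. mtRNA-Thr-TGT 52, mtRNA-Ile-GAT 52, mtRNA-Gly-TCC 33 and mtRNA-Arg-TCG 53, the most abundant fragment of each host, varied together in part. CD 4 was the highest of CD for each of them, and LP 3 and LP 4 were above LP 1 and LP 2. CD 1 departed from this, at 0.66 above its group mean for mtRNA-Thr-TGT 52 but at -0.28 for mtRNA-Ile-GAT 52, -0.32 for mtRNA-Gly-TCC 33 and -0.71 for mtRNA-Arg-TCG 53, where it was the lowest CD sample. Over their 6 pairs and the 9 samples, Pearson's r was 0.67 to 0.90 and Spearman's rho 0.63 to 0.90. Without the 2 samples farthest from the median of the first fragment of each pair, in the order named, r was 0.55 to 0.89. These samples were CD 5 and LP 2 or CD 4 and CD 5, depending on the pair.

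The closest pair was mtRNA-Ile-GAT 52 and mtRNA-Gly-TCC 33, with r = 0.90 (exact permutation test within groups, p = 0.00625, adjusted p = 0.0521 over 15 pairs) and rho = 0.90 (exact permutation test, p = 0.00694, adjusted p = 0.0552). Without CD 4 and CD 5, r was 0.86. mtRNA-Ile-GAT 52 and mtRNA-Arg-TCG 53 had r = 0.90 (exact permutation test, p = 0.0104, adjusted p = 0.0521) and rho = 0.82 (exact permutation test, p = 0.0184, adjusted p = 0.0552). Without CD 4 and CD 5, r was 0.88. After adjustment none of the 15 pairs passed, and 5 had an unadjusted p below 0.05 with either coefficient. Under TMM, 3 pairs passed (exact permutation test, adjusted p = 0.0312 to 0.0365), and without CD 1 all 6 pairs of these 4 fragments did (exact permutation test, adjusted p = 0.0434). The points share their libraries and size factors, and the part of depth in this co-variation was not tested. Table totals cover only tRFs called changed and do not stand for depth. In LP the libraries with the largest table totals, LP 3 and LP 4, had the higher levels, whereas in CD the largest total was that of CD 5 (34775 counts), which had the lowest mtRNA-Thr-TGT 52, mtRNA-Ile-GAT 52 and mtRNA-Gly-TCC 33, and the smallest that of CD 3 (26166 counts), which was above its group mean for all 4 fragments.

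mtRNA-Gly-TCC 51 had another order of rats in CD, but in LP it was higher in LP 3 and LP 4 than in LP 1 and LP 2, like the 4 abundant fragments. In CD it was highest in CD 1 and CD 2 and lowest of CD in CD 3 and CD 4, and its r with the other 5 fragments lay between -0.44 and 0.12 (exact permutation test, lowest p = 0.335, adjusted p = 0.457). Its rho lay between -0.40 and 0.17. These values rested largely on CD 4, without which r was -0.10 with mtRNA-Arg-TCG 53, 0.16 with mtRNA-Ile-GAT 52, 0.36 with mtRNA-Gly-TCC 33, 0.53 with mtRNA-Thr-TGT 52 and 0.60 with mtRNA-Thr-TGT 51 (exact permutation test, lowest adjusted p = 0.357). With mtRNA-Gly-TCC 33, whose whole sequence it contains, r was -0.03. mtRNA-Thr-TGT 51 had r of 0.53 to 0.71 with the 4 abundant fragments (exact permutation test, adjusted p = 0.129 to 0.271).

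**Figure D4:**
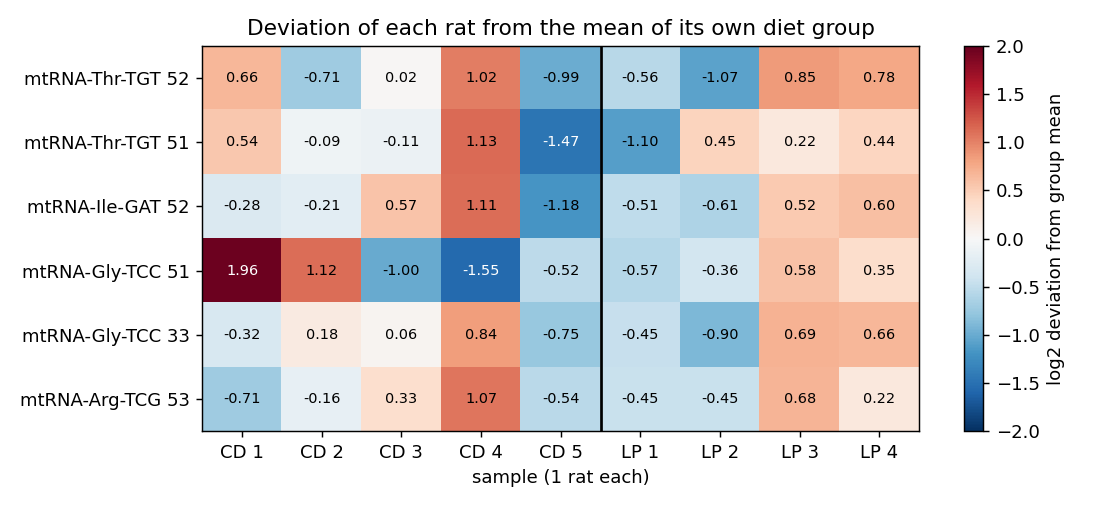
Deviation of each sample from the mean of its own diet group, in log2 normalized read counts, for the 6 fragments (rows) in the 9 rats (columns, CD left of the line). CD 4 is above its group mean in every row except mtRNA-Gly-TCC 51, where it is at -1.55 and CD 1 at 1.96.

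The tRFs outside the 6 with the most similar deviations over the 9 samples are given as a description. They were ranked by Pearson's r among the 186 others, including those that had not passed the filter on low counts. A 43-nt tRF of tRNA-Ser-GCT was among the 3 most similar to each of the 4 abundant fragments, with r of 0.84 for mtRNA-Arg-TCG 53, 0.87 for mtRNA-Gly-TCC 33, 0.92 for mtRNA-Ile-GAT 52 and 0.93 for mtRNA-Thr-TGT 52. It had 10 to 38 raw counts in CD and 1 to 9 in LP. A 52-nt tRF of tRNA-His-GTG was close to mtRNA-Thr-TGT 52 (r = 0.94) and mtRNA-Gly-TCC 33 (r = 0.81). It had 2 to 13 raw counts in LP. mtRNA-Cys-GCA 51, from the opposite mitochondrial strand, was close to mtRNA-Arg-TCG 53 (r = 0.85) and mtRNA-Ile-GAT 52 (r = 0.81), with 1 to 21 raw counts in LP. The lists also held mtRNA-Asn-GTT 55 for mtRNA-Thr-TGT 52 (r = 0.73), mtRNA-Leu1-TAA 21 for mtRNA-Arg-TCG 53 (r = 0.83), and 2 tRFs of tRNA-Asp-GTC that were higher in LP, of 31 nt for mtRNA-Ile-GAT 52 (r = 0.83) and of 32 nt for mtRNA-Gly-TCC 33 (r = 0.82). Of these, mtRNA-Leu1-TAA 21 had not passed the filter, with a mean of 2.41 normalized read counts in LP. The median r over the 186 was 0.02 to 0.12 for the 4 abundant fragments.

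For mtRNA-Gly-TCC 51, looked up after its values had been seen, the nearest were nuclear. They were a 50-nt tRF of tRNA-Ser-GCT (r = 0.95), a 52-nt tRF of tRNA-Asp-GTC (r = 0.94) and a 19-nt tRF of tRNA-Ala-AGC (r = 0.92), and 20 of the 186 had r above 0.8. The tRNA-Ser-GCT tRF had 1187, 509, 125, 53 and 214 raw counts in CD, the same order of rats as mtRNA-Gly-TCC 51.

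The 6 fragments together took 9.61%, 11.1%, 25.3%, 27.8% and 5.84% of the table's counts in CD 1 to CD 5 and 4.86%, 4.42%, 11.9% and 8.47% in LP 1 to LP 4. These shares scale each library by its table total, which is made up only of tRFs called changed. They overlapped between the groups, with CD 5 below LP 3 and LP 4, and CD 1 and CD 2 below LP 3. CD 3 and CD 4 stood apart at the top.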

How the data were processed

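Per the labels, islets were picked by hand, and a pretreatment opened the ends of fragments for adaptors and took off base methyl groups such as N1-methyladenosine before small RNA libraries were built. FastQC is named in the submitters' processing notes. The study annotated tRFs with collections of nuclear and mitochondrial tRNAs, required at least 2 reads in individual samples and used DESeq2. Genome build, aligner and any counting of molecular tags: not given in the sources used here. In the deposited table there are 255 rows, all called changed by the authors, with raw read counts that the authors left unscaled. The score values headed as normalized counts were deposited by the authors on a log2-like scale, and fitting DESeq2's variance-stabilising formula to them (residuals of at most 5.7e-05) returned the size factors. The deposited log2 fold change and p-value columns hold the authors' own comparison and were not used.

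Rows were collapsed by sequence to 192 tRFs, and LP was tested against CD by quasi-likelihood in edgeR 4.0.16 under R 4.3.3, with those size factors, a minimum count of 10 (181 tRFs left) and Benjamini-Hochberg adjustment over the table. Scripts were tested on simulated data. Ratios and co-variation used two-sided exact permutation tests (scipy 1.17.1), over 126 splits and 2880 orders within groups. Replicate libraries differed beyond sampling noise (chi-square per degree of freedom at least 11.0). The comparisons, lists and naming rule (every fragment of the 4 hosts, and for the most abundant of each host the 3 most similar other tRFs) were chosen with earlier results of these data known. Alternatives were DESeq2 1.42.0, TMM, no scaling, no filter, a pseudocount of 1, a replicate block and each sample left out. The table that pairs genes with positions held no mitochondrial genes, so no coordinates are given.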

Additional observations from a re-analysis of the deposited data

Results flagged for a closer look

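In each diet group, and for each of the 6 fragments, the lowest and highest log2 level were examined for a distance to the next sample that filled most of the spread, 12 sets of values in all. Chance gives about 1 in 20, or 0.6 here, and 1 was found. mtRNA-Thr-TGT 51 in LP 1 was far below the other LP samples, at 2.74 against 7.57 to 8.97 normalized read counts, a gap of 0.851 of the range. LP 1 had 2 counts of it and the smallest table total, 12556 counts.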

How the results depend on the processing

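No fragment changed direction under any alternative. Over the table, 61 of 192 tRFs were lower with DESeq2 and its own size factors, against 102 of 181 in the main test. With TMM 71 of 183 were lower, and without scaling 54 of 182. Both DESeq2 with the authors' size factors and the test without a filter gave 112 of 192. With each sample left out 94 to 110 were lower, among 173 to 187 tested. Of the 6 fragments, 5 were lower with DESeq2 and its own size factors or TMM, 3 without scaling, and 6 under DESeq2 with the authors' size factors, without a filter and with each sample left out. The cause of these differences beyond the change of scale was not tested. In co-variation 0 pairs passed, 3 under TMM, 0 with a pseudocount of 1, and 0 to 6 with each sample left out, the 6 without CD 1. No ratio passed under any alternative. No sign of pairing by replicate number was seen. Deviations of same-numbered samples correlated at -0.40 to 0.10, and no LP sample correlated best with the CD sample of its own number. A weak pairing could be missed in this way. With the replicate number as a block, 101 tRFs were lower, 75 higher, and the 6 fragments passed. In LP 1 and LP 2, mtRNA-Thr-TGT 51 had 2 and 9 counts and mtRNA-Gly-TCC 51 had 5 and 8. mtRNA-Gly-TCC 33 had 15 in each. These low counts limit the precision of their levels, shares and co-variation.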
